A study of Mus musculus with 6 samples.

Results

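The BCL2 family genes described here are Bcl2, Bcl2l1, Bcl2l11, Mcl1, Bax, Bak1, Bid, Bmf, Bbc3 and Pmaip1, 10 regulators of the mitochondrial route of cell death. They were chosen by name, and every probe set annotated to exactly 1 of these symbols was taken. This gave 30 of 34945 probe sets with 1 gene and 9 of 18193 genes, since no probe set carried the symbol Bax in the annotation used and Bax was not analysed here. Tumour epithelial cells came from chemically induced benign skin papillomas of mice and were hybridised to Affymetrix whole-genome mouse arrays. The Sox2cKO group holds 3 arrays of K14CREER:SOX2fl/fl mice, in which a tamoxifen-activated Cre under the keratin 14 promoter removes floxed Sox2 in keratinocytes. The CTRL group holds 3 arrays of control mice whose genotype the labels do not describe further. Both groups had received tamoxifen for 1 week, and cells were sorted as Epcam+ alpha6 integrin+ and free of CD45, CD31 and CD140a. The arrays stem from 3 biological experiments, and the labels do not say whether an array is 1 animal or a pool.

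Proteins of the BCL2 family decide whether the outer mitochondrial membrane stays closed. BCL2, BCL-XL (encoded by Bcl2l1) and MCL1 hold the pore-forming effectors BAX and BAK (Bak1) in check, and BH3-only proteins such as BIM (Bcl2l11), BID, BMF, PUMA (Bbc3) and NOXA (Pmaip1) relieve that restraint or activate the effectors directly. Once BAX or BAK opens the membrane, cytochrome c leaves and caspases are activated. In epidermis the family is known for its part in the loss of keratinocytes after ultraviolet light and after detachment from the basement membrane.

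Values are on a log2 scale, and all differences are Sox2cKO minus CTRL. Probe sets entered the tests if they lay above the array's 40th percentile on 3 or more of the 6 arrays, and a gene was read from its tested probe set of highest mean. The filter kept 24 of the 30 probe sets and all 9 genes with a probe set. The deleted gene read low in the Sox2cKO arrays: Sox2 was 4.07, 4.63 and 3.23 in Sox2cKO and 7.19, 8.31 and 8.18 in CTRL, a difference of -3.92 with an adjusted p of 0.316 in limma. The 3 CTRL arrays exceeded the filter for Sox2 and the 3 Sox2cKO arrays did not, so the size of that difference is limited by the dim signal. Where its probe set lies relative to the floxed segment was not examined. Xist, which females express, was 11.85 to 12.03 in CTRL replicates 2 and 3 and 6.08 to 7.54 on the remaining 4 arrays, so by this marker the groups are not balanced for sex. Basal keratinocyte markers were high in all arrays, with Krt14 at 13.94 to 14.16 over both groups, and the summed signal of 6 basal markers spanned 15.30 to 15.37 in Sox2cKO and 15.26 to 15.34 in CTRL. The 9 fibroblast and pericyte markers were 9 of 9 higher in mean in Sox2cKO, with a summed signal of 11.93 to 13.89 in Sox2cKO and 10.70 to 11.96 in CTRL. The 6 suprabasal markers were also 6 of 6 higher in mean, at 14.44 to 15.21 in Sox2cKO and 14.37 to 15.10 in CTRL. The sum of the 6 leukocyte markers tested was 8.66 to 9.16 in Sox2cKO and 8.99 to 9.53 in CTRL. Of these markers 4 were higher in mean in Sox2cKO and 2 lower (median difference 0.04), with Cd74 at -1.09. Among endothelial markers 1 of 5 passed the filter. Melanocyte markers summed to 7.86 to 9.73 in Sox2cKO and 8.26 to 8.86 in CTRL, and sebocyte markers to 12.31 to 12.88 in Sox2cKO and 12.77 to 13.31 in CTRL. No marker passed the threshold, none read 0, and their part in the values below was not tested. In such bulk samples fewer cells of a type and less RNA per cell cannot be told apart. Among the sort markers, Epcam averaged 10.85 ± 0.35 in Sox2cKO and 11.31 ± 0.20 in CTRL, and Itga6 averaged 12.26 ± 0.19 in Sox2cKO and 12.17 ± 0.07 in CTRL (SD, n = 3 each). Of the genes whose products excluded cells, Ptprc averaged 5.10 ± 0.48 in Sox2cKO and 5.00 ± 0.27 in CTRL, Pdgfra averaged 6.32 ± 0.89 in Sox2cKO and 5.30 ± 0.24 in CTRL, and Pecam1 stayed below the filter on all arrays.

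None of the 9 BCL2 family genes passed the threshold. At an adjusted p of 0.05 in limma, 0 of 9 were called, where the background over 13222 genes was 0%. Without adjustment 0 of 9 lay under 0.05, where the background was 2.68%, and 0 of the 24 probe sets did, where it was 2.92%. A change of 1.5-fold or more was seen in 0 of 9 genes, where the background was 2.69%. Differences ran from -0.24 (Bid) to 0.21 (Bcl2l1), with 6 genes above 0 (background 50.6%) and 3 below, a median of 0.02, and a median of 0.00 over all genes tested. The median size without sign was 0.10 for the family and 0.10 for all genes (0.0994). The 95% intervals of the 9 differences all held 0 and lay between -0.60 and 0.59, so that no interval reached a change beyond 1.51-fold in either direction. Every adjusted p of a family gene was 0.999 in limma. No family gene was called when any single array was left out, although 5 genes of the whole table passed without CTRL replicate 1. In that run all CTRL arrays had high Xist and no Sox2cKO array did, so genotype and sex by this marker cannot be told apart. With a covariate for high Xist the difference rests on CTRL replicate 1 alone, and no calls are drawn from it. Groups were apart, with all 3 values of a group above all 3 of the other, in 1 of the 9 genes (Mcl1), where the background was 5.85%. With each array centred on its median, or with the probe sets of a gene averaged, 0 genes were apart. Without Sox2cKO replicate 1 (Bcl2, Bcl2l1 and Mcl1) or Sox2cKO replicate 3 (Bid, Bmf and Mcl1) 3 were apart. Fewer arrays are apart more easily, and the share over all genes was not taken in those runs. Their counts therefore cannot be set against 5.85%.

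**Figure D1:**
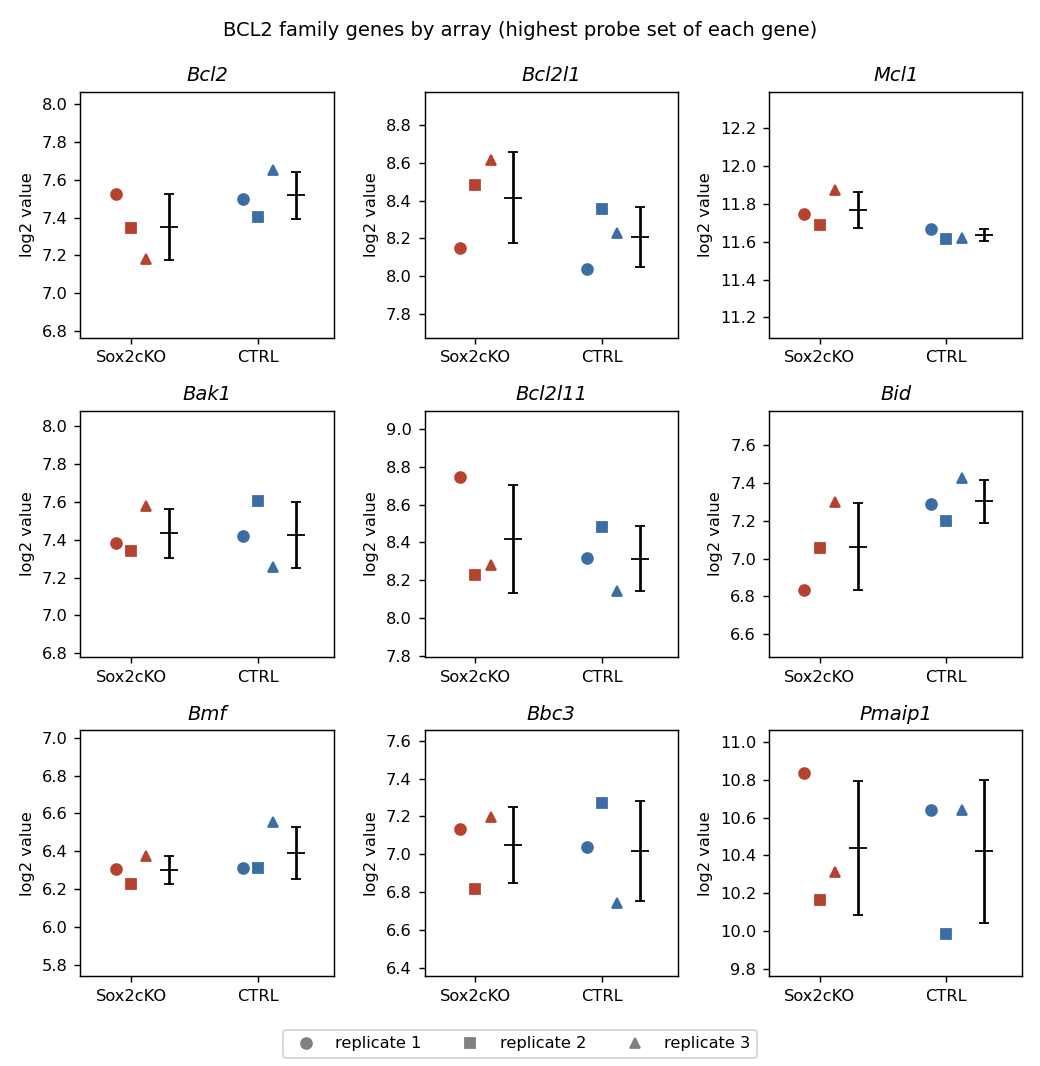
Log2 values of the 9 BCL2 family genes on each array, Sox2cKO left of CTRL, each gene read from its highest probe set and drawn over a span of 1.3 log2 units. Symbols give the replicate number and black bars the mean ± SD of 3 arrays, and the groups overlap in every panel except that of Mcl1.

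Of the antiapoptotic genes, Mcl1 was the only one whose Sox2cKO values all lay above its CTRL values, by a small margin. MCL1 is a short-lived antiapoptotic protein that binds BAK and BIM. Its brightest probe set (1448503_at) read 11.74, 11.69 and 11.87 in Sox2cKO, against 11.67, 11.62 and 11.62 in CTRL. The gap between the lowest Sox2cKO array and the highest CTRL array was thus only a small part of the spread within Sox2cKO. The difference was 0.13 (standard error 0.11, 95% interval -0.13 to 0.40). An exact permutation of the arrays (two-sided, without regard to replicate number) gave p = 0.1, below which 3 against 3 arrays cannot go. Groups that are apart always give that value, so it adds nothing to the arrays listed. Within replicate numbers 1 to 3 the differences were 0.07, 0.07 and 0.25. All 6 Mcl1 probe sets had positive differences, between 0.08 and 0.19, but they read the same arrays and are not independent of each other. Probe set 1416881_at, at 10.04, 9.99 and 10.05 in Sox2cKO and 9.97, 9.72 and 9.85 in CTRL, was the other one with groups apart. Together they make 2 of the family's 24 tested probe sets with groups apart, where the background over 23534 probe sets was 6.26%. The other 4 probe sets overlapped between groups, among them 1416880_at at 10.59, 10.27 and 10.31 in Sox2cKO and 10.25, 10.30 and 10.29 in CTRL. Within replicate number 2 these 4 were lower in Sox2cKO, with differences between -0.08 and -0.04. The suffix of 1437527_x_at, 1456243_x_at and 1456381_x_at marks probes that may bind unrelated transcripts.

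Bcl2l1, the gene of BCL-XL, had the largest positive difference of the family when each gene was read from its brightest probe set, while with averaged probe sets it stood at 0.14 and Bcl2l11 at 0.25. Its brightest probe set (1420888_at) read 8.15, 8.49 and 8.61 in Sox2cKO and 8.04, 8.35 and 8.23 in CTRL. The highest values came from Sox2cKO replicates 2 and 3, and Sox2cKO replicate 1 lay below both CTRL replicates 2 and 3, so the groups overlapped. The difference of 0.21 had a standard error of 0.16 and an interval of -0.17 to 0.59 (exact permutation p = 0.3). Within replicate numbers 1 to 3 it was 0.11, 0.13 and 0.38. The second tested probe set (1420887_a_at), whose suffix marks probes shared by transcripts of the gene, differed by 0.08, and the other 2 Bcl2l1 probe sets stayed below the filter on all 6 arrays.

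Bcl2, the founding antiapoptotic gene of the family, had negative differences in all 3 of its tested probe sets, none of which passed. Probe set 1457687_at read 7.53, 7.34 and 7.18 in Sox2cKO and 7.50, 7.41 and 7.65 in CTRL. Sox2cKO replicates 2 and 3 lay below all CTRL arrays and replicate 1 lay between them. The difference was -0.17 (standard error 0.14, interval -0.49 to 0.16, exact permutation p = 0.3). The other 2 tested probe sets differed by -0.05 and -0.09. A further 2 were dim, with 0 and 1 array above the filter, and differed by -0.35 and -0.28 as values without a test.

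Bak1 was the only effector gene that could be read, and its group means were close. BAK sits in the outer mitochondrial membrane and forms the pore when freed from MCL1 and BCL-XL. Probe set 1418991_at read 7.38, 7.34 and 7.58 in Sox2cKO and 7.42, 7.60 and 7.26 in CTRL, and CTRL held both the highest and the lowest value. The difference was 0.01, with an interval of -0.32 to 0.34. Its second probe set (1425716_s_at), whose suffix marks probes that can match more than a single gene, read 5.13, 5.03 and 5.39 in Sox2cKO and 5.16, 4.93 and 4.93 in CTRL, a difference of 0.18 (interval -0.16 to 0.52).

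Of the BH3-only genes, Bcl2l11 had the most tested probe sets, and their differences were of unequal size. BIM, its product, binds all antiapoptotic members and is induced when growth factor or integrin signals are withdrawn. The brightest probe set (1456005_a_at) read 8.75, 8.23 and 8.28 in Sox2cKO and 8.32, 8.48 and 8.14 in CTRL. Sox2cKO replicate 1 was the highest array and the other 5 were mixed, giving a difference of 0.10 (standard error 0.18, interval -0.31 to 0.52). All 5 tested probe sets had positive differences, between 0.10 and 0.51, and Sox2cKO replicate 1 was the highest array in each of them. The upper end was probe set 1426334_a_at, which read 6.12, 5.14 and 5.29 in Sox2cKO and 5.62, 4.60 and 4.80 in CTRL. Its groups overlapped, since both replicate 1 arrays stood well above the others, and the difference of 0.51 had a standard error of 0.34 and an interval of -0.28 to 1.30.

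Within replicate numbers the same probe set was steadier. Over all genes, deviations from the group means were correlated between arrays sharing a number (0.288, 0.206 and 0.211), and the Bcl2l11 values of 1426334_a_at differed by 0.50 between the replicates 1, by 0.54 between the replicates 2 and by 0.49 between the replicates 3. This probe set exceeded the filter on 4 of 6 arrays, CTRL replicates 2 and 3 lying below it, so these last 2 differences are taken against dim values. With the replicate number as a block, a setting applied to single probe sets after the data were seen, the standard error fell to 0.11 and the interval was 0.24 to 0.78, with an adjusted limma p of 0.761 over 23534 probe sets. The 4 other probe sets did not show this: their differences within replicate numbers ran in both directions, for example 0.43, -0.25 and 0.14 for 1456005_a_at. In the family as a whole, 6 of 24 tested probe sets had the same direction in all 3 replicate numbers (25%), against 26% of all tested probe sets. With the block 1 of the 24 had an unadjusted p under 0.05, against 5.7% of all tested probe sets.

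**Figure D2:**
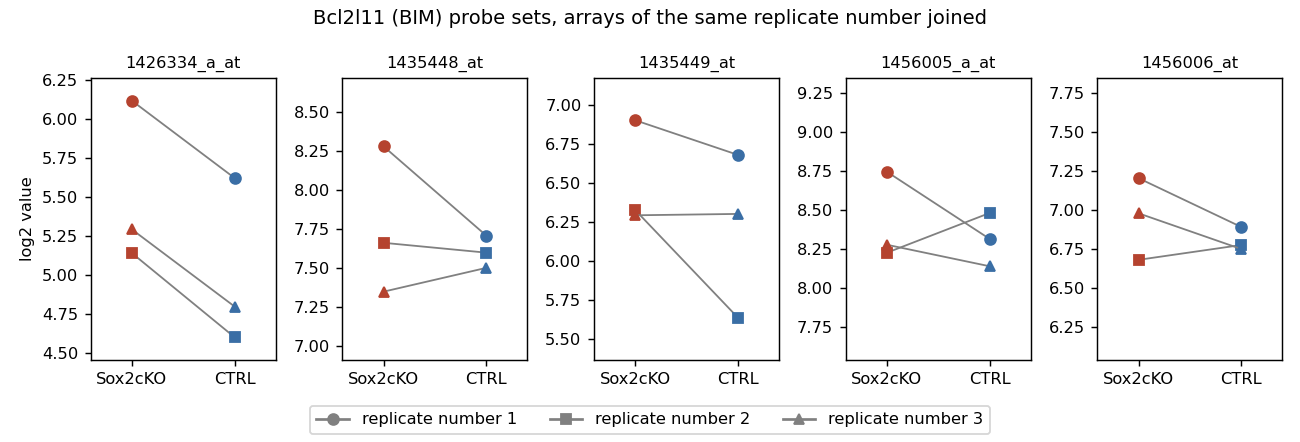
Log2 values of the 5 tested Bcl2l11 probe sets, Sox2cKO left and CTRL right in each panel, with arrays of the same replicate number joined by a line. The 3 lines of 1426334_a_at run nearly parallel, at 0.50, 0.54 and 0.49, and those of the other 4 probe sets do not.

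Bid had the largest negative difference of the family, and did not pass either. BID carries the signal of death receptors to mitochondria once caspase-8 has cleaved it. Probe set 1417045_at read 6.84, 7.05 and 7.30 in Sox2cKO and 7.29, 7.20 and 7.42 in CTRL. Sox2cKO replicates 1 and 2 lay below all CTRL arrays and replicate 3 lay among them. The difference was -0.24 (standard error 0.15, interval -0.60 to 0.12, exact permutation p = 0.3). Within replicate numbers 1 to 3 it was -0.45, -0.14 and -0.12, and the block on replicate number did not change the call. The second tested probe set (1448560_at) differed by -0.03, and a dim further probe set, below the filter on all arrays, differed by 0.30 in the opposite direction.

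The probe sets of Bmf disagreed. BMF is a BH3-only protein released from the cytoskeleton when epithelial cells lose attachment. The brightest (1458325_x_at) read 6.31, 6.23 and 6.37 in Sox2cKO and 6.31, 6.31 and 6.55 in CTRL, a difference of -0.09. The suffix of that probe set marks probes that may bind unrelated transcripts. The other tested probe set (1454880_s_at) read 5.04, 5.28 and 4.83 in Sox2cKO and 4.62, 5.46 and 4.54 in CTRL, a difference of 0.18 (interval -0.44 to 0.79), and in both groups its highest value was replicate 2. It exceeded the filter on only 3 of 6 arrays, so the disagreement rests partly on dim values. Over the 6 arrays the pair of probe sets moved in opposite directions (Pearson's r = -0.67, a description over arrays that share 3 replicate numbers).

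Bbc3 and Pmaip1, which p53 activates after DNA damage, had group differences far smaller than the spread of their arrays. Bbc3 (1423315_at) read 7.13, 6.82 and 7.20 in Sox2cKO and 7.04, 7.27 and 6.74 in CTRL, with a difference of 0.03 and an interval of -0.38 to 0.45. Pmaip1 (1418203_at) read 10.84, 10.16 and 10.31 in Sox2cKO and 10.64, 9.99 and 10.64 in CTRL. It had the widest range over arrays of the 9 genes, yet its group means were 10.44 ± 0.35 in Sox2cKO and 10.42 ± 0.38 in CTRL (SD, n = 3 each), and replicate 2 was the lowest array in both groups. The interval of its difference, -0.56 to 0.59, was the widest of the 9. The 3 genes whose values followed Pmaip1 most closely over the 6 arrays were A230070E04Rik (Pearson's r = 1.00), Entpd5 (0.987) and Syndig1l (0.986), a ranking among 13222 genes over few arrays that describes these arrays only.

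**Figure D3:**
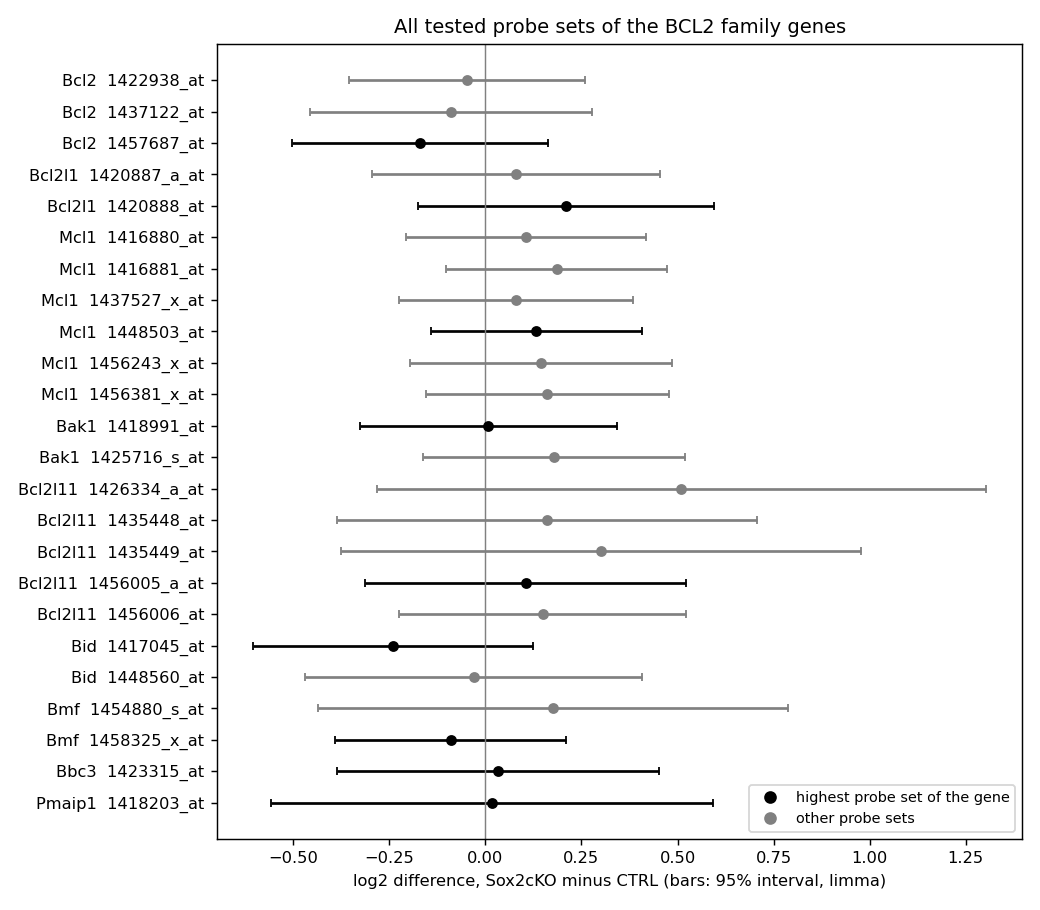
Log2 differences, Sox2cKO minus CTRL, of the 24 tested probe sets of the BCL2 family, with 95% intervals from limma over all probe sets, black for the brightest probe set of each gene and grey for the others. All 24 intervals hold 0, and 18 differences are positive and 6 negative. Probe sets of a gene are not independent, and Mcl1 gives 6 of the positive ones and Bcl2l11 5. By gene 6 of 9 are positive (background 50.6% of genes), and the share over all probe sets was not taken.

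The variation of each gene over the 6 arrays (its sum of squares) was split into a part for genotype, a part for replicate number and a rest. Genotype held 0.077% of the variation of Pmaip1 and replicate number 83.6%. For Mcl1 the order was the other way, with 57.6% for genotype and 19.3% for replicate number. The median over the 9 genes was 19.9% for genotype and 43.5% for replicate number, and over all 13222 genes it was 9.42% and 52.4%. The shares were not corrected for degrees of freedom. Genotype has fewer of these than replicate number, so the parts cannot be compared in size as they stand. Whether the family departs from all genes was not tested.

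Because the deleted factor is a SOX protein, promoter windows of the family were searched for the core letters bound by SOX proteins, ACAATG and ACAAAG, on both strands. The windows (RefSeq, GRCm38.p6) run from 250 bases before to 50 bases after an annotated gene start. The 15 windows searched belong to 8 of the 9 genes, some with several starts, and Pmaip1 was left out of the search. The 2 motifs cannot overlap at the same position. A match was present in 5 of 15 windows (4 genes), and 28.6% of all 32851 windows hold 1 or the other, 12.6% for ACAATG and 18.7% for ACAAAG. The 30-base stretches around the 5 matches are shown because they are the sites where those letters occur, with the match in capitals, each read 5′ to 3′ on the strand of its gene.
Bcl2l1, chr2:152828490-152828519, minus strand: gcagaggctgacACAATGagtgctttttct
Bcl2l1, chr2:152831854-152831883, minus strand: tttctgtagtatACAAAGggacagatggat
Bid, chr6:120917039-120917068, minus strand: taatacatcaagACAATGcggagaggtcgg
Bbc3, chr7:16310091-16310120, plus strand: gtttgtttacaaACAATGgggttcgggctc
Bak1, chr17:27028578-27028607, minus strand: tcctctatggtcACAAAGtcgcgaggtttc
The Bak1 match lies after the start its window was built on and the others before theirs, and several of these starts are internal to the annotated gene. Of the genes with a match, Bcl2l1 differed by 0.21, Bid by -0.24, Bbc3 by 0.03 and Bak1 by 0.01, and those with a window and no match were Bcl2, Bcl2l11, Mcl1 and Bmf. A match of 6 letters is a description of the sequence, not a binding site.

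Other genes of the pathway, in 8 lists, showed the same absence of calls. Of 69 listed genes 57 were tested, and 0 passed in either direction at an adjusted p of 0.05 in limma, where the background was 0%. Without adjustment 0 of 57 lay under 0.05 (background 2.68%), and groups were apart in 0 of 57 (background 5.85%). Differences were positive in 28 and negative in 29, with a median of 0.00 over the 57 genes (-0.0047), beside 0.00 over all genes. The other listed genes are not analysed here.

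The remaining BCL2 relatives were mixed. The antiapoptotic gene Bcl2l2 (BCL-W), the only gene of its list tested, read 8.27, 8.63 and 8.08 in Sox2cKO and 8.48, 7.91 and 8.30 in CTRL, a difference of 0.10. Of 10 effector, BH3-only and related genes 5 were positive and 5 negative (median 0.00), with Bcl2l12 at -0.23, the effector relative Bok at -0.18 and Bcl2l15 at -0.44 ± 0.49 (standard error). Downstream of the pore, 8 of 9 genes of cytochrome c release and the apoptosome had negative differences, with a median of -0.03 over the 9. Over all genes tested, 50.6% of differences were positive. The negative genes included the mitochondrial serine protease gene Htra2 (-0.28), the nuclease gene Endog (-0.19) and Aifm1 (-0.12), none of which passed. Some negative differences were slight, with Diablo at -0.007 and Vdac1 and Vdac3 at -0.005 each. The positive gene was the apoptosome gene Apaf1, at 0.10.

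Among 9 caspase genes and partners the median was -0.01, with the caspase genes Casp2 at -0.22 and Casp8 at -0.14 and the caspase substrate Parp1 at 0.10. Of 5 inhibitor of apoptosis genes, Birc5 (survivin), which is made mainly in dividing cells, read 9.90, 9.85 and 10.23 in Sox2cKO and 10.14, 10.56 and 10.25 in CTRL. Its difference of -0.32 had an adjusted limma p of 0.999, and the caspase inhibitor gene Xiap and Birc3 stood at 0.16 and -0.12. The 5 death receptor and ligand genes had a median of 0.02, with the TRAIL gene Tnfsf10 at -0.24 and the receptor genes Fas and Tnfrsf10b at 0.05 each. Regulators of MCL1 and BAX/BAK turnover and binding had a median of 0.03, with the 14-3-3 protein gene Ywhaz at 0.17 and the ubiquitin ligase subunit genes Fbxw7 and Btrc at -0.28 and -0.11.

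The list of p53-related and other transcription factors had the widest span, from -0.36 to 0.71, and a median of 0.08 over 9 genes. Its upper end was Mdm2, the p53 ubiquitin ligase and itself a p53 target, at 11.05, 9.80 and 10.88 in Sox2cKO and 10.43, 9.32 and 9.85 in CTRL. The groups overlapped and the difference of 0.71 had a standard error of 0.39 (limma, adjusted p = 0.999). Cdkn1a, the p53-activated gene of the cell cycle inhibitor p21, read 12.08, 11.57 and 12.01 in Sox2cKO and 11.71, 11.27 and 11.49 in CTRL, a difference of 0.40 with an adjusted limma p of 0.999. The transcription factor gene E2f1 differed by -0.21. The p53-activated BH3-only genes Bbc3 and Pmaip1 stood at 0.03 and 0.02 in the same arrays, and whether their differences depart from those of Mdm2 and Cdkn1a was not tested.

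**Figure D4:**
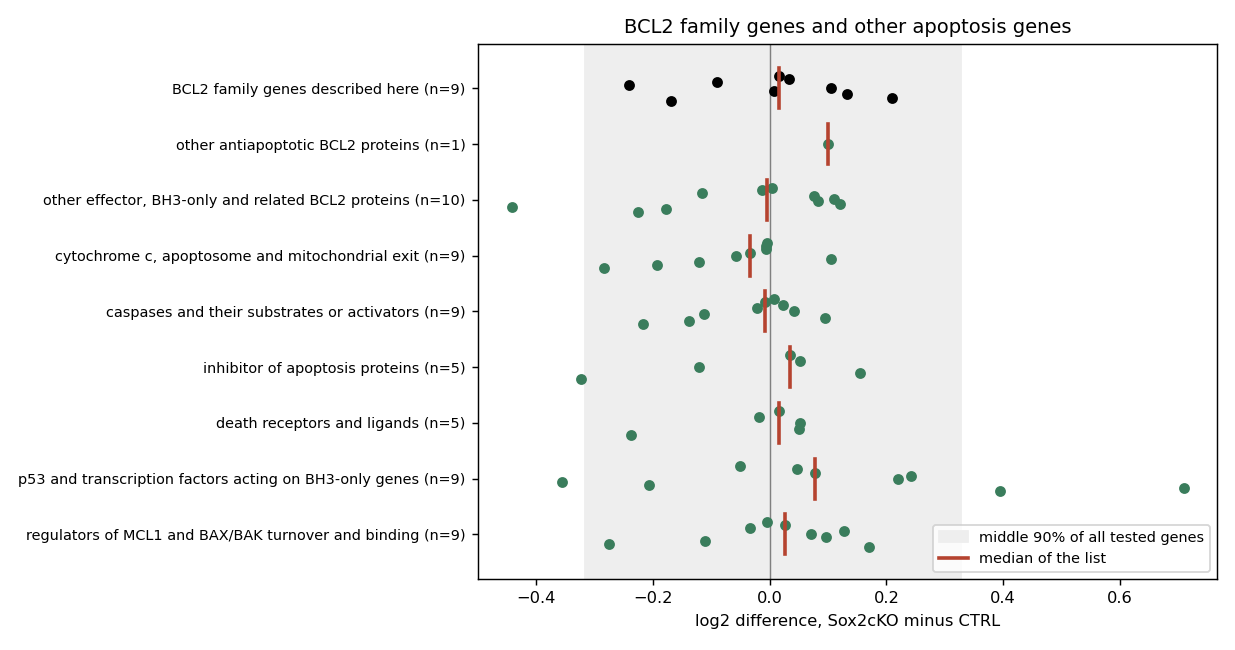
Log2 differences, Sox2cKO minus CTRL, of the 9 BCL2 family genes (black, top) and of 8 lists of other apoptosis genes (green), 1 point per gene, with the median of each list as a red bar and the middle 90% of all tested genes (-0.32 to 0.33) shaded. All 9 family genes lie inside the shaded span, and Mdm2 at 0.71 is the point farthest to the right.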

How the data were processed

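The deposited table gives log2 values for 45101 probe sets on 6 arrays. The scale was read from the range of the values. The authors worked in R 2.14.0, per the submitters' processing notes. Background correction, summarisation and normalization are not given in the sources used here. Array medians (5.42 to 5.46) show a common scale, so a shift of most genes would be hidden. Probe sets were named from the platform annotation. 13222 genes and 23534 probe sets with 1 gene passed the filter. Each set was fitted in limma 3.58.1 (R 4.3.3, two-sided tests) with Benjamini-Hochberg adjustment over all genes or probe sets and a threshold of 0.05. Marker sums are log2 of summed linear values over tested markers. Members and lists were chosen with earlier results of these data known. Beyond the members, named genes are Sox2, the 3 of lowest p in each list, the sort markers and the 3 most like the member of widest range. Xist, other markers, Apaf1, Diablo, Vdac1, Vdac3 and genes called under an alternative (Eif2s3y, Kdm5d, Uty) were named after their values were seen. On simulated data of 13222 genes with 200 changed, limma recovered 61 of 100 changes of log2 size 1 and 92 of 100 of size 2 in the Sox2cKO comparison, with 10 false calls. With the replicate block it recovered 10 and 82. The simulated noise was independent between arrays, unlike the deviations here, which were correlated within replicate numbers. These counts therefore do not measure what either fit would recover in these data. The number of arrays limits the precision, and p-values measure the spread between these arrays, which may be technical. Intervals, p-values and calls come from a fit without the replicate number, unless a block is named. The block was run as an alternative, and the numbers count as pairs since all 3 correlations of same-numbered deviations exceeded 0.1. No arrays held identical values.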

Additional observations from a re-analysis of the deposited data

How the results depend on the processing

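The 9 BCL2 family genes had 0 calls without the filter, with a 60th-percentile filter, with quantile normalization and with median centring. They had 0 calls with 16 added on the linear scale, a trended robust fit, and averaged or single probe sets. The same held with the replicate block (also on single probe sets) and on leaving out each array. A covariate for arrays with high Xist was also run. High Xist occurred only in CTRL replicates 2 and 3, so this covariate sets the Sox2cKO mean against CTRL replicate 1 alone. Its results are given as effect sizes only. Bcl2, Bcl2l1, Bid and Mcl1 kept the sign of their difference in all 17 alternatives. The filter changes, the trended robust fit, single probe sets and the replicate block returned the same difference (-0.17 for Bcl2). In those settings the sign could not turn, so they are no check of it. In other settings the size changed. Leaving out 1 array gave -0.26 to -0.084 for Bcl2, 0.11 to 0.34 for Bcl2l1, -0.36 to -0.13 for Bid and 0.081 to 0.17 for Mcl1. The Xist covariate gave 0.38 for Bcl2l1. Signs turned for Bmf with averaged probe sets (0.043) and for Pmaip1 with the Xist covariate (-0.20). Leaving out 1 array gave ranges of -0.077 to 0.097 for Bak1, -0.11 to 0.16 for Bbc3, -0.060 to 0.200 for Bcl2l11 and -0.20 to 0.15 for Pmaip1, and the cause was not tested. Groups were apart in 0 family genes with median centring, in 0 with averaged probe sets, and in 1 to 3 with an array left out, where fewer arrays make it easier. The share of all genes with groups apart was not taken in the runs with an array left out. Over all genes 0 to 5 passed with an array left out, the 5 without CTRL replicate 1 (Sox2, Xist, Eif2s3y, Kdm5d and Uty). In that run the CTRL arrays all had high Xist and the Sox2cKO arrays did not. Its calls therefore cannot be told apart from a difference in sex by this marker. Sox2 ranged from -4.27 to -3.54 and passed without CTRL replicate 1 (limma, adjusted p = 0.0425). The replicate block left 0 genes past the threshold and raised the genes with an unadjusted p under 0.05 to 656, against 354 without it. It changed no call.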

Other observations

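The second tested probe set of Mdm2 (1427718_a_at), looked up after the values of the first were seen, was also higher in Sox2cKO within each replicate number, by 0.79, 0.77 and 1.56, and the first by 0.62, 0.48 and 1.03. For Cdkn1a the same differences were 0.37, 0.30 and 0.51 in its brighter probe set (1424638_at) and 0.12, 0.23 and 0.82 in the other (1421679_a_at). With the replicate number as a block the unadjusted limma p was 0.00425 and 0.00248 for the Mdm2 probe sets. For those of Cdkn1a the unadjusted limma p was 0.0167 and 0.0719. With that block 5.7% of all tested probe sets lay under 0.05 unadjusted. The adjusted limma p over 23534 probe sets lay between 0.761 and 0.898, so none passed. Both genes were named for their low p in these same data, and probe sets of a gene are not independent. These unadjusted p-values are therefore a description only.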
